A study of Rattus norvegicus with 18 samples.

Results

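The 10 core circadian clock genes measured here were Bmal1, Clock, Npas2, Cry1, Cry2, Per1, Per2, Per3, Nr1d1 and Nr1d2, 10 of the 10483 genes tested on the array. They were chosen by name as the parts of 1 feedback loop, and also by their measured values in these same rats, namely the strain difference in each deposit block and the way activators and repressors moved against each other. Their levels, strain differences and mutual relations are therefore given as a description, and no p-value is printed for any of the 10. Where a fit over all genes is counted, clock genes passing a threshold may be named, but nothing is read from the count or the names. For the main fits the count stands beside the share of all genes. All 18 probe sets annotated to the 10 genes were read, and 13 of them passed the filter on dim probe sets, at least 1 for each gene. The brightest, used for each gene, were 1370510_a_at for Bmal1, 1390199_at for Clock, 1383439_at for Npas2, 1392640_at for Cry1, 1372548_at for Cry2, 1374855_at for Per1, 1368303_at for Per2, 1378745_at for Per3, 1370816_at for Nr1d1 and 1390430_at for Nr1d2. The 5 left out were 1 each of Clock, Cry2, Per2, Per3 and Nr1d2, with intensities of 0.8 to 25.5 for Clock, 11.2 to 45.6 for Cry2, 6.0 to 44.7 for Per2, 1.0 to 27.0 for Per3 and 3.7 to 71.0 for Nr1d2 over the 18 rats.

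The molecular clock is a transcriptional loop that runs in nearly every cell, kidney tubules included. BMAL1 pairs with CLOCK or with its relative NPAS2 and switches on genes that carry E-boxes, among them the Per, Cry and Nr1d genes. PER and CRY proteins then shut off BMAL1 and its partners, and the nuclear receptors NR1D1 and NR1D2 (REV-ERB alpha and beta) repress Bmal1 through elements they share with the ROR receptors, so that Bmal1 transcripts peak at about the opposite time of day from Nr1d1 and Per transcripts.

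Kidneys of 9 S.SHR(2) rats and 9 Dahl S rats were profiled from pieces kept in RNAlater, each on 1 Affymetrix Rat Genome 230 2.0 array. S.SHR(2) is a congenic strain labelled as derived from SS/Jr and SHR/NHsd, which carries SHR chromosome 2 material on the Dahl S background, and Dahl S is the salt-sensitive inbred strain labelled SS/Jr. The design text describes male rats at 4, 12 and 20 weeks, 3 of each strain at each age. The labels give an age for Dahl S replicate 2 (4 weeks) and Dahl S replicate 4 (12 weeks) only, both on a diet with 0.3% NaCl, and they give no age or diet for the other rats and no time of day at which any kidney was taken.

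In their order of deposit the arrays were divided here into 3 sets of 6, called deposit blocks 1, 2 and 3. Each block holds 3 S.SHR(2) and 3 Dahl S rats, and the labels record no such division. A block is only a place in the order of deposit: Dahl S replicate 2 lies in block 1 and Dahl S replicate 4 in block 2, and no other rat can be assigned an age. None of the 10 genes lies on chromosome 2. Bmal1 lies on chromosome 1, Clock on 14, Npas2 and Per2 on 9, Cry1 on 7, Cry2 on 3, Per1 and Nr1d1 on 10, Per3 on 5 and Nr1d2 on 15.

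RefSeq's table for the assembly GRCr8 holds promoter windows for 9 of the 10 genes (11 windows, none for Cry1), each running from 250 bases before to 50 bases after a start site. Each window was searched on both strands for the E-box CACGTG, the related E-prime-box CACGTT, the D-box TTATGTAA or TTACGTAA bound by DBP and its relatives, and the RORE bound by ROR and NR1D receptors. The 250 bases before the start site are printed for the 3 genes with which the relations are later described, because they hold 1 example each of these elements. Capitals mark the matches. The Bmal1 window is chr1:176766078-176766327 on the plus strand, the Per2 window chr9:99496994-99497243 on the minus strand and the second Nr1d1 window chr10:84229455-84229704 on the minus strand.
Bmal1: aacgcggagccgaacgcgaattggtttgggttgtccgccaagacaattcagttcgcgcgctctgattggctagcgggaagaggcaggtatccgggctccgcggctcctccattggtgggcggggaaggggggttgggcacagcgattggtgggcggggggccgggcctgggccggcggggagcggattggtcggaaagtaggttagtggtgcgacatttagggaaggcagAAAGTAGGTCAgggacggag
Per2: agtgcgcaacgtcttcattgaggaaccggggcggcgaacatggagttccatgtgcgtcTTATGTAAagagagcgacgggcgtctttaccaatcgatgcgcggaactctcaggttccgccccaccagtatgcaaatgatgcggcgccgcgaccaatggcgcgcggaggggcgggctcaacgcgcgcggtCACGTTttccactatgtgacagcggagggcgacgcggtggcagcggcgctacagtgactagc
Nr1d1: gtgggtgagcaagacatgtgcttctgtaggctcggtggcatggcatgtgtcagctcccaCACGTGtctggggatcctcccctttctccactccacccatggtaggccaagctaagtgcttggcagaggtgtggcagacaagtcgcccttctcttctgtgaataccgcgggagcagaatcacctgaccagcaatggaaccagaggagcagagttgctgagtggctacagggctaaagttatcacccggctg

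The Bmal1 window held a RORE whose first base lies 20 bases before the start site, an element found in 0.356% of all 33469 windows in the table. The Per2 window held a D-box starting 192 bases and an E-prime-box starting 62 bases before the start site. The second Nr1d1 window held an E-box 191 bases before its start site. The first Nr1d1 window held an E-prime-box on the opposite strand at 174 bases, and the Cry2 window 1 on the opposite strand at 212 bases. The windows of Clock, Npas2, Per1, Per3 and Nr1d2 held no match to these letters. An E-box was present in 6.42% of all windows, an E-prime-box in 4.83% and a D-box in 1.01%. A match describes the letters in this window and shows no binding.

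The deposited intensities had been scaled to nearly the same trimmed mean on every array, 150.046 to 150.054. Pairs of arrays correlated at 0.909 to 0.988. The 3'/5' ratio of the GAPDH control probe sets, a sign of RNA integrity, ran from 1.19 to 2.51, and that of beta-actin from 2.22 to 6.83, with the highest beta-actin ratios in S.SHR(2) replicate 1 and Dahl S replicate 5. Of 8 kidney markers, 7 were on the array under these symbols and all 7 passed the filter, with Umod between 5258 and 7695. Of the markers of other tissues on the array, 1 of 6 for adrenal gland (Cyp11a1), 1 of 4 for liver (Ttr), 2 of 4 for adipose tissue (Adipoq and Plin1), 3 of 5 for lymphoid and blood cells and 3 of 3 for smooth muscle passed the filter, while Star, Cyp11b1 and Alb lay below its limit. Cyp11a1 averaged 73.4, 46.6 and 48.5 in S.SHR(2) rats of blocks 1, 2 and 3, against 86.3, 59.4 and 64.7 in Dahl S rats. The adrenal markers below the limit had no common order of the strains. Cyp21a1 averaged 22.2, 18.8 and 23.2 in S.SHR(2) rats, against 18.2, 17.5 and 18.6 in Dahl S rats. Hsd3b1 averaged 5.4, 3.1 and 1.2 in S.SHR(2) rats, against 12.8, 24.7 and 10.0 in Dahl S rats. The blood marker Hbb ranged from 1733 to 9253 over all rats. In block 2 it was 1733.3 to 1930.5 in S.SHR(2) rats, against 2781.5 to 5022.5 in Dahl S rats. Block 3 had the reverse order, 2788.0 to 3504.1 against 2061.0 to 2770.9, and block 1 overlapped. Alas2 was apart in block 2 only, at 100.8 to 137.2 in S.SHR(2) against 184.6 to 294.4 in Dahl S. Ptprc was apart in block 3 only, at 118.1 to 178.9 in S.SHR(2) against 181.4 to 272.7 in Dahl S. The part of such cells in the results was not tested. In pieces of kidney, fewer cells of a type and less RNA per cell cannot be told apart. Strain differences below are S.SHR(2) minus Dahl S on the scale of log2(intensity + 16) after quantile normalization, with the standard error of the model, and each gene is represented by its brightest probe set, while single values are deposited intensities.

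Bmal1, the partner that every activator complex of the loop needs, was lower in S.SHR(2) kidneys. In block 1 its intensity was 68.8, 64 and 72.2 in S.SHR(2) rats, against 137.5, 99.4 and 58.9 in Dahl S rats. In block 2 it was 76.5, 84.0 and 63.7 in S.SHR(2) rats, against 110.6, 122.2 and 127.8 in Dahl S rats. Block 3 gave 73.0, 79.0 and 72.3 in S.SHR(2) rats, against 133.1, 133.5 and 133.7 in Dahl S rats. The strains were apart in blocks 2 and 3, and in block 1 only Dahl S replicate 3, at 58.9, fell among or below the S.SHR(2) rats. Over all rats Bmal1 averaged 72.6 ± 6.65 in S.SHR(2) and 117 ± 25.2 in Dahl S (SD, n = 9 each), a difference of -0.53 ± 0.116 on the log2 scale. Within the blocks the difference was -0.36, -0.61 and -0.62. Without Dahl S replicate 3 it was -0.64 over all rats and -0.64 in block 1. Leaving out each rat in turn, it ran from -0.64 to -0.50 over all rats and from -0.64 to -0.12 in block 1.

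Npas2, which can stand in for CLOCK, ran in the same direction with more scatter. Its intensity in block 1 was 60.7, 97.3 and 60.2 in S.SHR(2) rats, against 80.4, 104.3 and 100.2 in Dahl S rats. Block 2 showed the widest gap, with 134.4, 100.3 and 78.0 in S.SHR(2) rats, against 148.8, 176.8 and 165.5 in Dahl S rats. In block 3 the values overlapped, at 104.9, 88.3 and 64.5 in S.SHR(2) rats, against 100.8, 112.7 and 107.9 in Dahl S rats. The difference was -0.38 ± 0.153 over all rats, and -0.32, -0.61 and -0.21 by block.

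Clock, the constitutive partner of BMAL1, showed a small difference whose sign depended on the block. In block 1 its brightest probe set read 347.8, 347.8 and 351.5 in S.SHR(2) rats, against 319.1, 335.1 and 332.3 in Dahl S rats. Block 2 read 399.3, 367.6 and 335.0 in S.SHR(2) rats, against 326.1, 362.7 and 345.6 in Dahl S rats. In block 3 it read 298.4, 187.0 and 306.0 in S.SHR(2) rats, against 334.4, 333.5 and 329.7 in Dahl S rats. Block 1 thus had every S.SHR(2) rat above every Dahl S rat and block 3 every S.SHR(2) rat below, with block 2 overlapping. The difference was -0.05 ± 0.098 over all rats and 0.07, 0.09 and -0.33 by block. Without S.SHR(2) replicate 8, the rat at 187.0, it was 0.03 over all rats and -0.13 in block 3. The next brightest Clock probe set gave -0.12, -0.13 and -0.18 by block, so these probe sets disagreed in sign in blocks 1 and 2, and 1 more gave -0.55, 0.79 and -0.18.

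**Figure D1:**
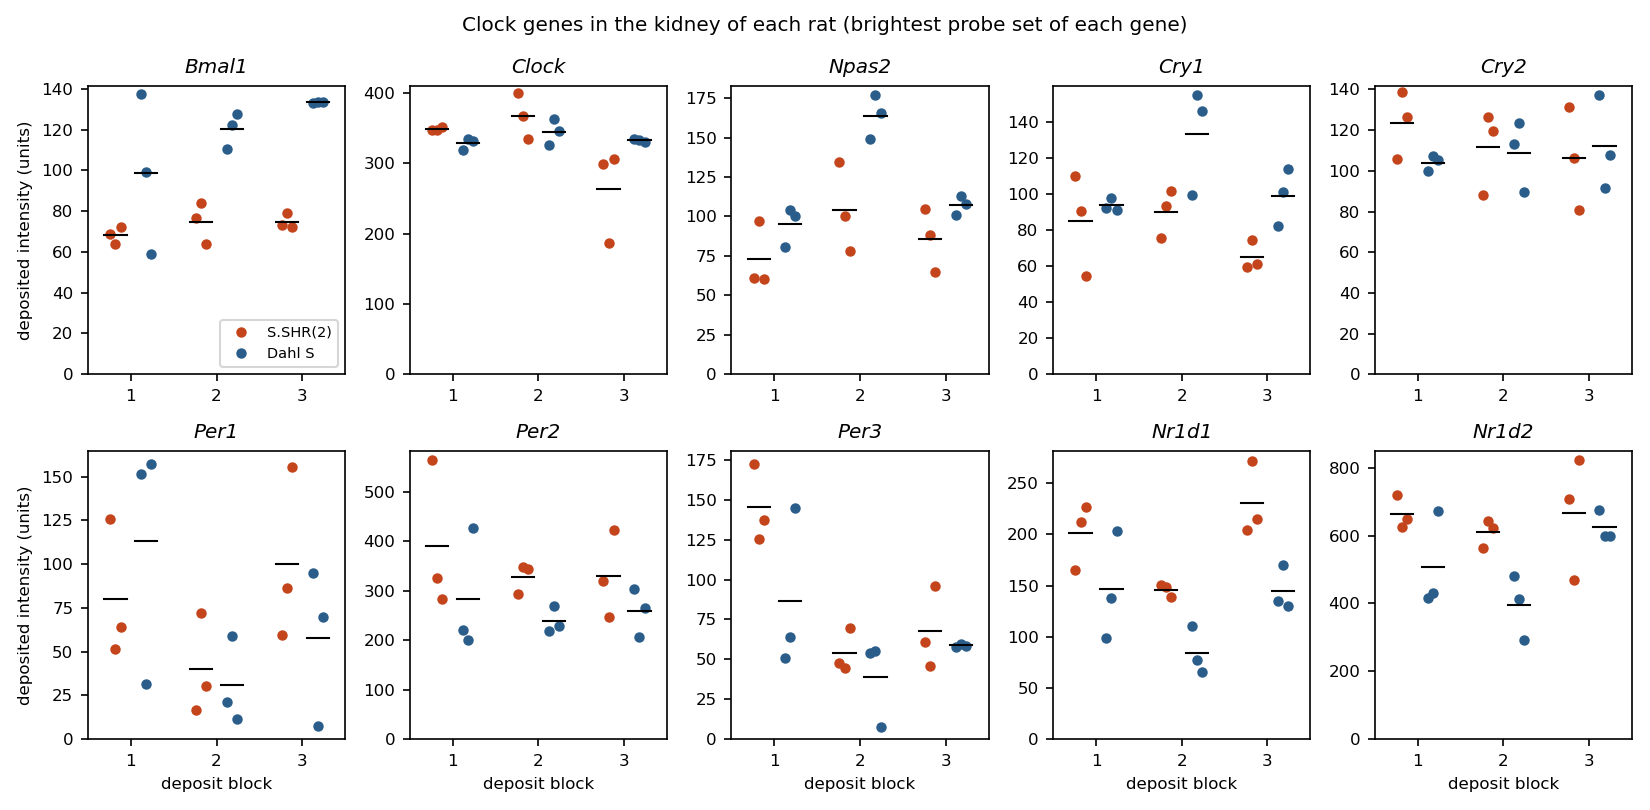
Deposited intensity of the brightest probe set of each clock gene (vertical axes, linear units, own scale per gene) in each of the 18 rats by deposit block, with S.SHR(2) rats in orange to the left of Dahl S rats in blue and a line at the mean of 3 rats. Bmal1 lay between 63.7 and 84.0 in the 9 S.SHR(2) rats, and 8 of the 9 Dahl S rats lay above that range, the exception being the rat at 58.9 in block 1.

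Nr1d1, the nuclear receptor that represses Bmal1, moved the opposite way. In block 1 its intensity was 165.5, 212.2 and 226.8 in S.SHR(2) rats, against 98.4, 138.3 and 203.1 in Dahl S rats. Block 2 had 150.7, 148.5 and 138.9 in S.SHR(2) rats, against 110.1, 77.1 and 65.3 in Dahl S rats. Block 3 had 204.6, 271.3 and 215.2 in S.SHR(2) rats, against 135.0, 169.6 and 129.7 in Dahl S rats. Blocks 2 and 3 had no overlap, and in block 1 Dahl S replicate 3 alone reached into the S.SHR(2) range. Nr1d1 averaged 193 ± 44.3 in S.SHR(2) and 125 ± 43.6 in Dahl S (SD, n = 9 each). The difference was 0.62 ± 0.167 over all rats, 0.48, 0.73 and 0.65 by block, and 0.71 over all rats without Dahl S replicate 3. Leaving out each rat in turn, it ran from 0.52 to 0.71 over all rats and from 0.25 to 0.72 in block 1.

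Its relative Nr1d2 was also higher in S.SHR(2) in blocks 1 and 2. Block 1 gave 719.4, 623.9 and 650.0 in S.SHR(2) rats, against 416.4, 429.8 and 672.4 in Dahl S rats. Block 2 gave 564.3, 642.5 and 622.8 in S.SHR(2) rats, against 481.2, 413.2 and 291.7 in Dahl S rats. Block 3 gave 707.5, 467.8 and 823.3 in S.SHR(2) rats, against 676.3, 598.1 and 597.3 in Dahl S rats. The third block held the lowest and the highest S.SHR(2) values, on either side of the Dahl S rats. The difference was 0.36 ± 0.140 over all rats and 0.40, 0.64 and 0.03 by block. A second probe set of Nr1d2 gave 0.57, 0.64 and 0.22 by block. Without S.SHR(2) replicate 8 the brightest probe set gave 0.29 in block 3, and leaving out each rat in turn gave -0.15 to 0.29 there.

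Per2, a repressor that binds CRY, was higher in S.SHR(2) in each block. Its intensity in block 1 was 564.0, 325.1 and 283.0 in S.SHR(2) rats, against 221.0, 199.5 and 425.4 in Dahl S rats. The values of block 2 were 293.0, 346.7 and 343.6 in S.SHR(2) rats, against 218.5, 267.8 and 227.5 in Dahl S rats. Those of block 3 were 319.4, 247.3 and 422.0 in S.SHR(2) rats, against 303.8, 206.9 and 265.6 in Dahl S rats. The strains were apart in block 2 and overlapped in blocks 1 and 3, where Dahl S replicate 3 again sat high in block 1. The difference was 0.41 ± 0.141 over all rats and 0.46, 0.44 and 0.34 by block. Without Dahl S replicate 3 it was 0.50 over all rats and 0.78 in block 1. Leaving out each rat in turn, it ran from 0.33 to 0.50 over all rats and from 0.19 to 0.78 in block 1.

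Per3, a family member that is dispensable for the loop in mice, had its largest strain difference in block 1. There it read 172.4, 125.5 and 137.5 in S.SHR(2) rats, against 50.9, 63.9 and 145.0 in Dahl S rats. Block 2 read 47.9, 44.8 and 69.5 in S.SHR(2) rats, against 54.0, 55.2 and 7.6 in Dahl S rats. Block 3 read 61.0, 45.6 and 96.0 in S.SHR(2) rats, against 57.8, 59.7 and 58.5 in Dahl S rats. The strains overlapped in all 3 blocks, in block 1 through Dahl S replicate 3 at 145.0, and the difference was 0.50 ± 0.280 over all rats and 0.78, 0.49 and 0.23 by block. In block 2 it rested on the Dahl S rat at 7.6: the lowest value on leaving out a single rat was -0.07. Per1, the third Period gene, had the widest scatter of the 10 genes and gave no order of the strains. It ranged from 16.6 to 155.7 with a median of 63.8 in S.SHR(2) rats, and from 7.7 to 157.3 with a median of 58.8 in Dahl S rats. Its difference was 0.31 ± 0.389 over all rats and -0.25, 0.26 and 0.92 by block.

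Cry1 was the 1 repressor that ran with Bmal1 and Npas2 rather than with the Nr1d and Per genes. In block 1 its intensity was 109.8, 90.4 and 54.4 in S.SHR(2) rats, against 92.1, 97.7 and 91.4 in Dahl S rats. In block 2 it was 75.6, 93.6 and 101.5 in S.SHR(2) rats, against 99.2, 154.9 and 146.1 in Dahl S rats. In block 3 it was 59.3, 74.4 and 61.0 in S.SHR(2) rats, against 82.4, 101.0 and 113.9 in Dahl S rats. As deposited the strains were apart in block 3 and overlapped by 1 pair of rats in block 2, and after normalization it was the reverse. The difference was -0.35 ± 0.131 over all rats and -0.14, -0.50 and -0.40 by block. Without S.SHR(2) replicate 3, the rat at 54.4, the sign in block 1 turned, to 0.12. As background, Cry1 transcripts in mouse tissues peak later than those of Per and Nr1d genes and carry ROR elements besides E-boxes. Cry2, its relative, averaged 114 ± 19.8 in S.SHR(2) and 108 ± 15.1 in Dahl S (SD, n = 9 each), with differences of 0.24, 0.02 and -0.00 by block. The Cry2 ranges overlapped as deposited in all 3 blocks and were apart in block 1 after normalization.

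**Figure D2:**
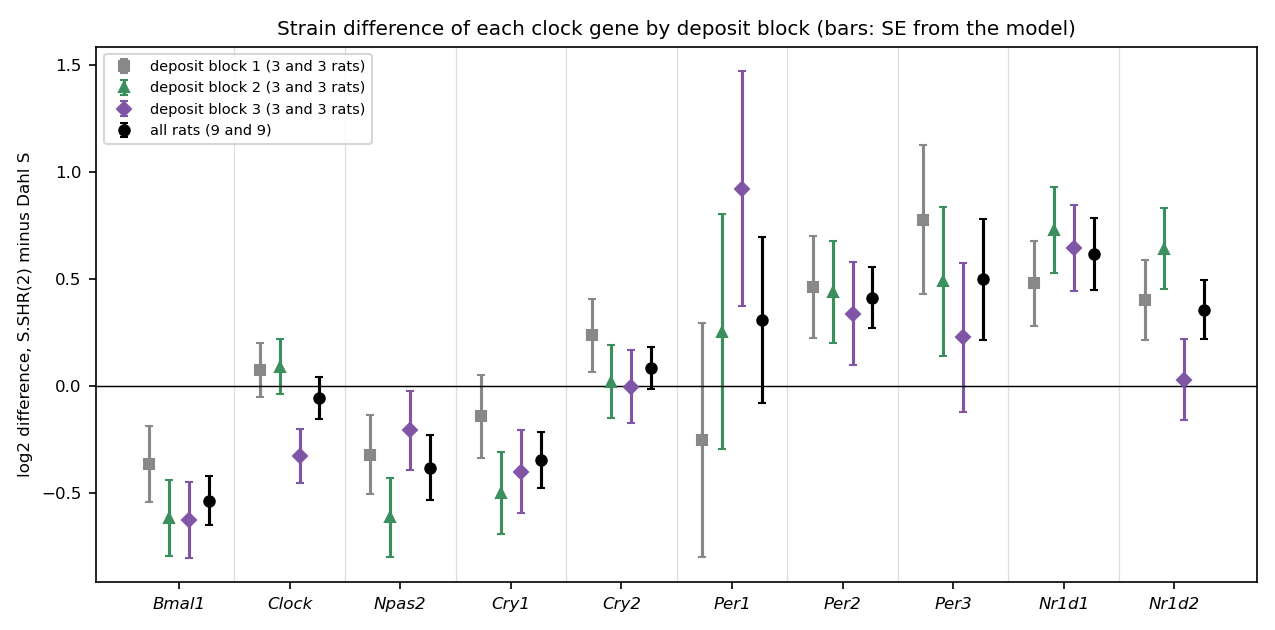
Strain difference, S.SHR(2) minus Dahl S, of each clock gene on the scale of log2(intensity + 16) (vertical axis) in deposit blocks 1, 2 and 3 and over all rats, with bars of 1 standard error from the model. Bmal1, Npas2 and Cry1 lay below 0 and Per2, Per3, Nr1d1 and Nr1d2 above 0 in all 3 blocks, with Nr1d2 at 0.03 in block 3.

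Counted together, 7 of the 10 genes had 1 sign of difference in all 3 blocks. Per2, Per3, Nr1d1 and Nr1d2 were above 0, and Bmal1, Npas2 and Cry1 were below 0. Over all genes tested 28.6% had 1 sign in all 3 blocks. Leaving out a single rat turned the sign of 3 of these values: Cry1 in block 1 without S.SHR(2) replicate 3 (0.12), Per3 in block 2 without Dahl S replicate 6 (-0.07) and Nr1d2 in block 3 without S.SHR(2) replicate 7 (-0.02) or 9 (-0.15) or Dahl S replicate 8 (-0.01). After normalization every rat of one strain lay beyond every rat of the other for Clock and Cry2 in block 1 (both higher in S.SHR(2)). In block 2 that held for Per2, Nr1d1 and Nr1d2 (higher) and for Bmal1, Npas2 and Cry1 (lower). In block 3 it held for Nr1d1 (higher) and for Bmal1 and Clock (lower). The share of all genes so separated was 11.1% in block 1, 8.92% in block 2 and 20.8% in block 3. Over all 18 rats no clock gene was separated, beside 0.0763% of all genes.

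In the limma model over all rats, 0 of the 10 clock genes passed an adjusted p under 0.05, beside 0.0572% of all genes, and 6 of the 10 had an unadjusted p under 0.05, beside 4.6% of all genes. Within block 1 the count was 0 beside 0.0859% of all genes (3 at an unadjusted p under 0.05, beside 10.1%). Within block 2 it was 0 beside 0.0668% (5 unadjusted, beside 3.11%), and within block 3 it was 0 beside 0.391% (3 unadjusted, beside 12.3%). With the deposit block as a term, 2 of the 10 passed, Bmal1 (lower) and Nr1d1 (higher), beside 0.487% of all genes. At an adjusted p under 0.01 Bmal1 was not among them. Without the block term and without Dahl S replicate 3, the Dahl S rat lowest in Bmal1, the count was 1 (Bmal1) over all rats and in block 3. Fits leaving out 1 rat called 6 to 14 of all genes over all rats and 2 to 139 in block 3. The same strain contrast chose the clock genes, so nothing is read from any of these counts. With the beta-actin 3'/5' ratio as a covariate, the difference over all rats was -0.51 for Bmal1 and 0.67 for Nr1d1.

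The strain difference was also compared between blocks. The interaction of strain and block gave 0 calls in limma among the 10 genes, beside 0% of all genes, with 0 of the 10 at an unadjusted p under 0.05 (736 of all genes, 7.02%). The strain differences by block took part in choosing the genes, so nothing is read from these counts either.

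Levels of the clock genes also differed between deposit blocks, with the strains averaged. Nr1d1 was lower in block 2 than in block 1 by 0.54 (log2 difference -0.54 ± 0.141) and higher in block 3 than in block 2 by 0.63 ± 0.141. Npas2 ran the other way, with 0.59 ± 0.130 for block 2 minus block 1 and -0.39 ± 0.130 for block 3 minus block 2. Per3 was highest in block 1, with block 2 at -1.08 ± 0.245 and block 3 at -0.62 ± 0.245 against it. Bmal1 differed by 0.22 ± 0.126 between blocks 2 and 1 and by 0.08 ± 0.126 between blocks 3 and 2. Clock, Npas2, Per3 and Nr1d1 passed an adjusted p under 0.05 for any difference among blocks, 4 of 10, beside 50.5% of all genes. Age, array run and time of collection cannot be told apart here, since the labels tie no block to any of them.

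Activators and repressors were then set against each other, rat by rat. Bmal1 fell into nearly separate strain groups, so correlations over all 18 rats partly restate the strain difference. The log2 level of Nr1d1 minus that of Bmal1 in each rat ran from 0.72 to 1.52 with a median of 1.26 in S.SHR(2) rats, and from -0.86 to 1.56 with a median of -0.01 in Dahl S rats. Dahl S replicate 3, in block 1, had the highest value of all 18 rats, and the other 8 Dahl S rats lay at 0.43 or below, under every S.SHR(2) rat. By block the S.SHR(2) rats averaged 1.37, 0.86 and 1.37, against 0.52, -0.48 and 0.10 in Dahl S rats.

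Over 18 rats Bmal1 and Nr1d1 had a Pearson r of -0.69 (Spearman rho -0.62), and within the blocks of 6 rats r was -0.94, -0.86 and -0.82. Bmal1 and Per2 had r of -0.71 (rho -0.77), and -0.69, -0.84 and -0.67 by block. Bmal1 and Cry1 had r of 0.47 (rho 0.38), and 0.14, 0.75 and 0.86 by block. No pair of an activator with a repressor was above 0.48 over 18 rats once the mean of each strain in each block was taken out. Leaving out the 2 rats farthest from the median of Bmal1 gave -0.73 with Nr1d1, -0.64 with Per2 and 0.51 with Cry1.

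Within a strain the relations of Bmal1 to Nr1d1 and Per2 were weaker or depended on 1 rat. Among the 9 S.SHR(2) rats, Bmal1 had r of 0.23 with Nr1d1 and -0.26 with Per2. Among the 9 Dahl S rats it had r of -0.58 with Nr1d1 and -0.69 with Per2, but -0.16 and 0.39 once Dahl S replicate 3 was left out. With the mean of each strain in each block taken out, r over 18 rats was -0.64 for Nr1d1 and -0.53 for Per2, and -0.30 and -0.01 without that rat. The relation of Bmal1 to Per2 thus rested on the strain difference and on 1 Dahl S rat. The clock genes of that rat read low in Bmal1 and high in Per2, Per3 and Nr1d1. For Nr1d1 the remaining r of -0.30 neither shows nor excludes a relation to Bmal1.

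**Figure D3:**
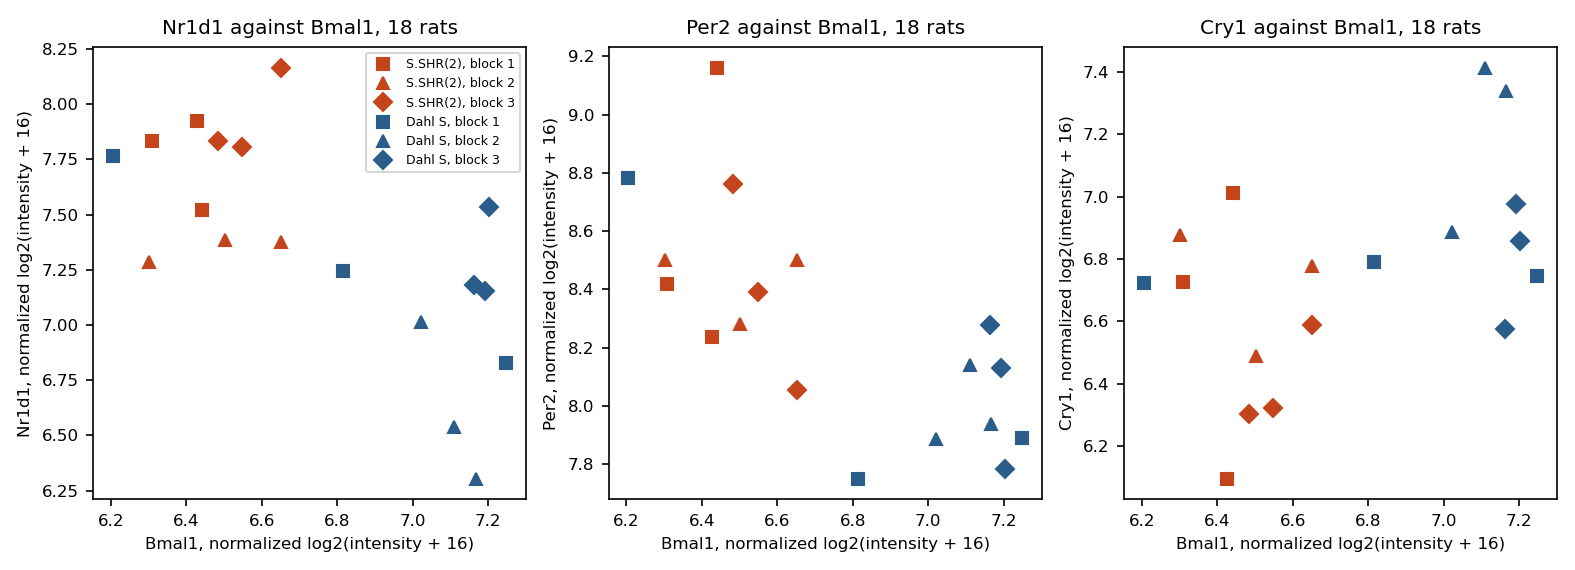
Nr1d1, Per2 and Cry1 (vertical axes) against Bmal1 (horizontal axes) in 18 rats, both as log2(intensity + 16) after quantile normalization, with orange for S.SHR(2), blue for Dahl S and a shape for each deposit block. S.SHR(2) rats lie to the left and, for Nr1d1 and Per2, mostly above the Dahl S rats, and 1 Dahl S rat of block 1 lies among them, which sets r at -0.58 for Nr1d1 within Dahl S.

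Over all rats and in blocks 1 and 2, pairs of repressors moved together more often than they opposed, but not in block 3. Of 21 pairs among the 7 repressors, 15 had an r above 0 over 18 rats, with a median of 0.28, and the 6 below 0 all involved Cry1. By block 15, 17 and 10 of the 21 were above 0, with medians of 0.32, 0.45 and -0.07. With strain and block means taken out, 14 of the 21 were above 0. Cry1 had r of -0.76 with Nr1d1 and -0.61 with Nr1d2. The lowest r of any pair of repressors was -0.35 with strain and block means taken out. Per3 and Nr1d2 had r of 0.73, and 0.84 with strain and block means taken out. Per2 and Nr1d2 had 0.69 either way, and Per1 and Per2 had 0.58, and 0.67 with those means taken out. Nr1d1 and Nr1d2 had 0.70 over all rats and 0.35 with those means taken out. Of the 21 pairs of an activator with a repressor, 15 were below 0, with a median of -0.31, and the 3 pairs of activators were all at or above 0, the lowest 0.00 for Bmal1 and Clock. With strain and block means taken out, 14 of those 21 pairs and 2 of the 3 pairs of activators were below 0.

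**Figure D4:**
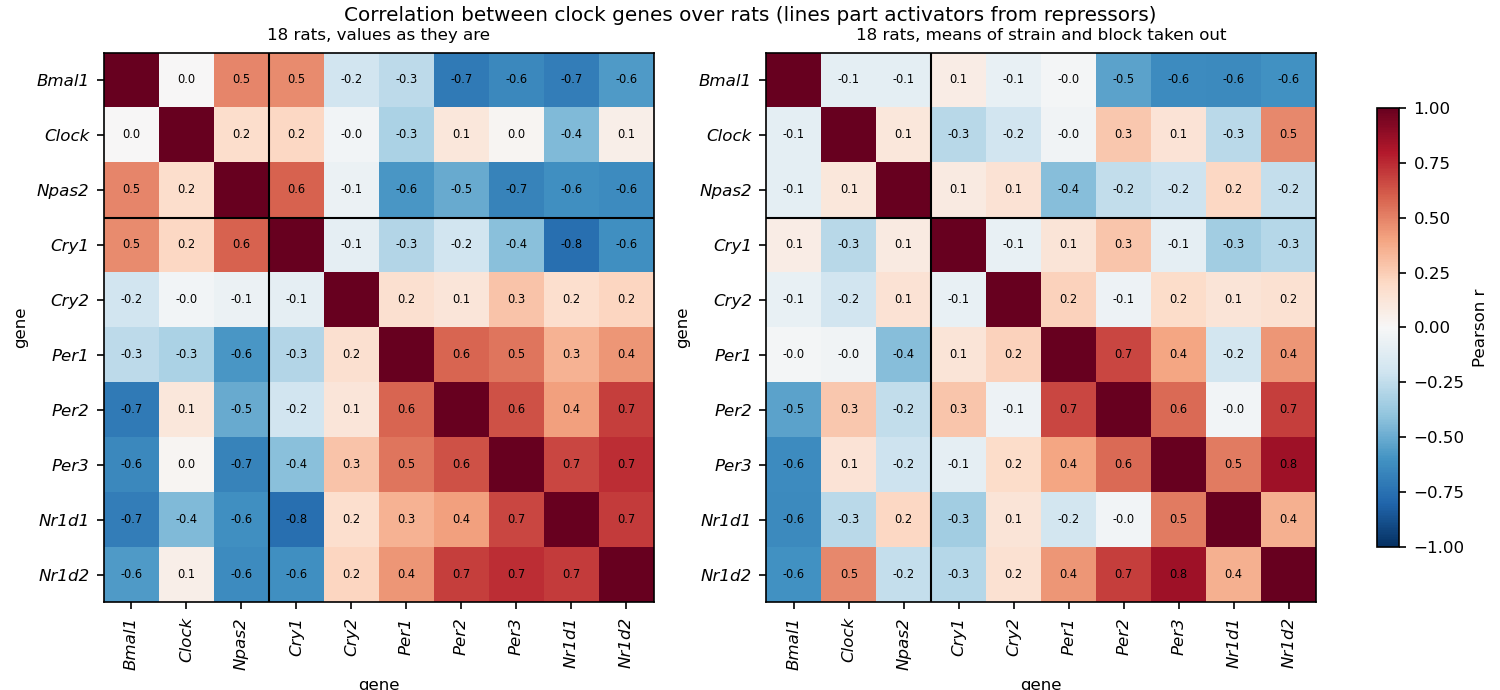
Pearson r between each pair of clock genes over 18 rats, from the values as they are (left) and after the mean of each strain in each deposit block was taken out (right), with lines between the 3 activators and the 7 repressors. The block of Per and Nr1d genes at the lower right is mostly above 0 in both panels, with Per3 and Nr1d2 at 0.73 and 0.84, while r of Bmal1 and Npas2 is 0.49 on the left and -0.10 on the right.

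Genes around the core loop were tested in the same fits, with p-values adjusted over all genes. The gene lists were chosen with earlier results of these data known, so their p-values are no independent check on the clock genes. Of 9 output factors, all were tested, and 8 had a difference above 0 over all rats, with a median of 0.18 against 0.02 over all genes. The share of all genes above 0 was not counted. In blocks 2 and 3 limma called 1 of the 9, Dbp, beside 0.0668% and 0.391% of all genes. With the block as a term it called 2 of the 9, Dbp and Noct, beside 0.487%. At an unadjusted p under 0.05 there were 4 over all rats (4.6% of all genes) and 1 in block 1 (10.1%). There were 3 in block 2 (3.11%), 3 in block 3 (12.3%) and 6 with the block as a term (10.3%). Dbp encodes a transcription factor that binds D-boxes and is a direct target of BMAL1 and its partners. In block 1 its intensity was 269.2, 245.6 and 306.9 in S.SHR(2) rats, against 178.1, 125.2 and 215.7 in Dahl S rats. Block 2 showed 147.1, 167.7 and 175.5 in S.SHR(2) rats, against 106.5, 65.5 and 61.2 in Dahl S rats. Block 3 showed 286.3, 294.0 and 363.0 in S.SHR(2) rats, against 167.2, 134.0 and 169.9 in Dahl S rats. The strains did not overlap in any block.

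Dbp was higher in S.SHR(2) by 0.97 ± 0.184 in block 2 (limma, adjusted p = 0.046) and by 0.96 ± 0.184 in block 3 (adjusted p = 0.021). In block 1 the difference was 0.66 ± 0.184 (adjusted p = 0.25). Over all rats it was 0.86 ± 0.208 without the block (adjusted p = 0.19) and 0.86 ± 0.106 with the block as a term (adjusted p = 7.7e-05). With the block as a term it passed whichever of the 18 rats was left out, with adjusted p up to 0.00036. The call in block 2 did not hold for 14 of the 18 rats left out in turn, and it held without Dahl S replicate 2, 3 or 4 or S.SHR(2) replicate 8. The call in block 3 did not hold without Dahl S replicate 7, 8 or 9 or S.SHR(2) replicate 7.

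Noct, a rhythmic deadenylase-like protein also called nocturnin, was higher in S.SHR(2) by 0.43 ± 0.097 with the block as a term (limma, adjusted p = 0.04). Its intensity was 92.0, 50.3 and 76.7 in S.SHR(2) rats of block 1, against 57.1, 51.4 and 52.5 in Dahl S rats. In block 2 it was 106.8, 140.1 and 157.0 in S.SHR(2) rats, against 97.2, 87.8 and 102.5 in Dahl S rats. In block 3 it was 112.8, 137.7 and 157.7 in S.SHR(2) rats, against 99.0, 80.4 and 102.3 in Dahl S rats. The strains were apart in blocks 2 and 3, but the call held for 4 of the 18 rats left out in turn, with adjusted p up to 0.1. Tef, a relative of Dbp, had 0.19 ± 0.072 with the block as a term (adjusted p = 0.35), and Wee1, a kinase of cell cycle control, had 0.22 ± 0.086 (adjusted p = 0.37).

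**Figure D5:**
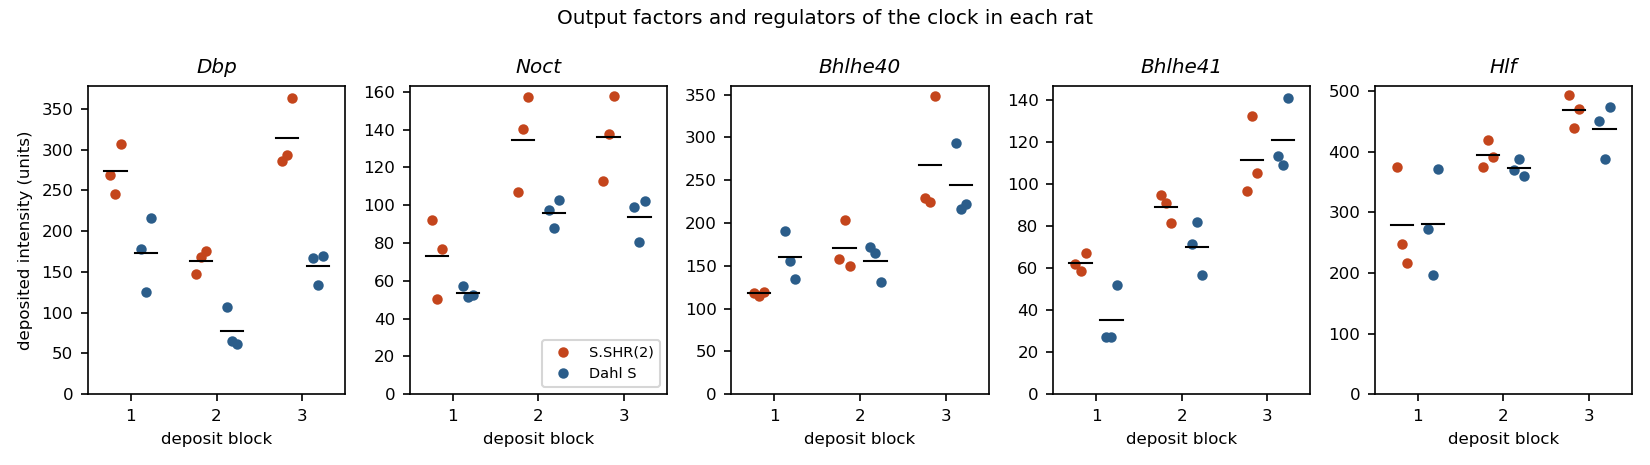
Deposited intensity (vertical axes, linear units, own scale per gene) of the output factors Dbp, Noct and Hlf and the regulators Bhlhe40 and Bhlhe41 in each rat by deposit block, S.SHR(2) in orange to the left of Dahl S in blue, with a line at the mean of 3 rats. Dbp was between 147.1 and 363.0 in S.SHR(2) rats and between 61.2 and 215.7 in Dahl S rats, and the strains were apart within each block.

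Of 21 regulators of the core loop, such as the casein kinases that act on PER proteins, 12 were tested, and 0 passed in any strain comparison by limma, with 0 at an unadjusted p under 0.05 over all rats (4.6% of all genes), 5 in block 1 (10.1%), 0 in block 2 (3.11%), 2 in block 3 (12.3%) and 3 with the block as a term (10.3%). Bhlhe41 (DEC2), a repressor at E-boxes, had the smallest p of them in block 1, at 0.70 ± 0.182 (adjusted p = 0.22), with 61.8, 58.7 and 67.4 in S.SHR(2) rats, against 27.1, 27.0 and 52.2 in Dahl S rats. Its relative Bhlhe40 had -0.36 ± 0.163 there (adjusted p = 0.48). Nfil3, a repressor at D-boxes, had -0.48 ± 0.176 with the block as a term (adjusted p = 0.33). Usp2, a deubiquitinase that acts on clock proteins, had 0.66 ± 0.256 in block 3 (adjusted p = 0.29). Between blocks 9 of the 12 regulators and 6 of the 9 output factors passed, beside the 50.5% of all genes given above. Bhlhe41 was higher in block 3 than in block 1 by 1.10 ± 0.128, and Noct by 0.75 ± 0.122.

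The genes whose values ran most like a clock gene were taken over 18 rats by Pearson r, from all tested genes that are not among the 10. Dbp ran most like Nr1d1, at 0.88 (0.39 with strain and block means taken out), and the next 4, Dhrs1, Sdc3, C1qtnf2 and Sptssa, were at 0.75 each. The 5 lowest against Nr1d1 were the monocarboxylate transporters Slc16a1 (-0.83) and Slc5a12 (-0.79), with Chd1l (-0.79), Atpaf1 (-0.76) and Pde4dip (-0.75). Apcs, the serum amyloid P component, ran most like Bmal1, at 0.84 (0.81 with those means taken out), followed by Gstm4, Gstm5, Garnl3 and Elapor1 at 0.78 to 0.76. Nudcd2 (-0.80), Pla2g12a (-0.76), Bcas3 (-0.75), Matn2 (-0.74) and Ndrg3 (-0.72) ran most against Bmal1.

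For Per2 the highest were LOC100910424 (0.84), Herpud1 (0.81), a gene of the stress response of the endoplasmic reticulum, Brd1 (0.80), Mtr (0.79) and Dhtkd1 (0.77). The lowest were the threonyl-tRNA synthetase Tars1 (-0.83), the FAD synthetase Flad1 (-0.74), Timm17b (-0.73), Mybbp1a (-0.72) and Rpp25 (-0.72). The 10 genes named for Per2 kept an r beyond 0.71 in size with strain and block means taken out. The highest Per2 value, 564.0, came from S.SHR(2) replicate 1. That array also had the highest 3'/5' ratios, 2.51 for GAPDH and 6.83 for beta-actin. The r of these genes without that rat was not tested. With strain and block means taken out, those named for Nr1d1 lay between -0.51 (Atpaf1) and 0.52 (C1qtnf2), with Chd1l at 0.06. Among those named for Bmal1, Apcs (0.81) and Elapor1 (0.80) changed little. Gstm4 and Gstm5 moved to 0.37, Pla2g12a to -0.28 and Bcas3 to -0.25. Of the 30 genes named for the 3 clock genes, 9 lie on chromosome 2, which holds 6.63% of the tested genes with a known chromosome. The rats share strain and deposit block, so these likenesses are descriptions over 18 points that are not independent of the strain.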

How the data were processed

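Each kidney gave 1 array, for which the authors deposited linear intensities with 1 decimal, found from the values to share a trimmed mean. The software is not given in the sources used. Per the labels' protocols, total RNA from kidney pieces kept in RNAlater was extracted with Trizol, purified and hybridised as biotinylated cRNA. Rats are the replicates, and strain came from the titles. The number of arrays limits the precision.

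From these, 57 control probe sets were left out, log2(intensity + 16) was taken and arrays were quantile normalized, because their medians spanned 0.235 (limit 0.2). The 40% dimmest of 31042 probe sets were dropped, among them 5 of the 18 of the clock genes. Folds of dim genes are understated by the 16 added. Of the probe sets, 20826 name 1 gene, 436 several and 9780 none, by the platform annotation updated to GRCr8 symbols. Each gene is its brightest probe set. limma 3.58.1 in R 4.3.3 (lmFit, eBayes with trend) fitted strain, or strain in each deposit block with 1 shared spread, two-sided, with Benjamini-Hochberg adjustment over 10483 genes. The model was tested on simulated data. Blocks were set by the order of deposit.

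Members and gene lists were chosen with earlier results of these data known. Named are all members, list genes called or among the 4 smallest p of a list and fit, and the 5 genes most and least like Bmal1, Nr1d1 and Per2. Nothing says whether rats shared litters, so p-values measure the spread between these rats. Other pseudocounts, filters, normalizations, array weights and fits leaving out 1 rat were tried. Figures were drawn with matplotlib 3.10.9.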

Additional observations from a re-analysis of the deposited data

Results flagged for a closer look

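In 20 groups of 9 rats (10 genes, 2 strains), 4 values stood far from the rest of their group by Dixon's rule on the gap to the nearest rat, where chance gives about 1 in 20. Dahl S replicate 3, in block 1, accounted for 3 of the 4: its Bmal1 was the lowest in Dahl S at 58.9 (next 99.4), its Per2 the highest at 425.4 (next 303.8) and its Per3 the highest at 145.0 (next 63.9). Its beta-actin 3'/5' ratio was 3.94, within the range of the other arrays, and its median correlation with the other arrays was 0.966. The fourth was Clock in S.SHR(2) replicate 8, in block 3, the lowest at 187.0 (next 298.4), on the array with the lowest median correlation with the others, 0.944. The part of array quality in these values was not tested.

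Clock also had every S.SHR(2) rat above every Dahl S rat in block 1 (log2 difference 0.0747) and every S.SHR(2) rat below in block 3 (-0.33). These are values given as a description, since the strain difference in each block took part in choosing the gene.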

How the results depend on the processing

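Counts of called clock genes over all rats were 0, but 1 with a pseudocount of 64, 1 with array weights (Bmal1 both times) and 2 with the deposit block as a fixed term, and 0 to 1 leaving out 1 rat. In block 3 array weights gave 2 clock genes and 2 genes of the other lists, against 0 and 1, and leaving out 1 rat gave 0 to 1 of each. Between blocks array weights called 7 clock genes against 4, and leaving out 1 rat gave 3 to 6. The calls over all genes moved with the settings too, by the ranges given below. Those ranges are not split by setting, so these counts stand without the share of all genes and nothing is read from them. Dbp, the 1 list gene called in block 2, was lost there (count 0) with a pseudocount of 64, without the filter, without the trend and at an adjusted p of 0.01, and in block 3 (count 0) at 0.01. The block term called 2 list genes over all rats, against 0. Leaving out 1 rat gave 0 to 1 list genes in block 1 and in block 2. The r of Bmal1 was -0.94 with Nr1d1 within block 1 and 0.86 with Cry1 within block 3. Leaving out 1 rat, it was -0.76 to -0.66 with Nr1d1, -0.74 to -0.66 with Per2 and 0.40 to 0.54 with Cry1. Of 40 single strain differences, 8 moved by over 1 SD in some setting. They were Bmal1, Clock, Cry1 and Per2 in block 1, Clock and Per3 in block 2, and Clock and Nr1d2 in block 3. Dropping 60% of dim probe sets removed Per1 and Per3. Of all genes tested, those called in block 3 numbered 41, with 25 to 861 across settings and 2 to 139 leaving out 1 rat. Across settings they numbered 4 to 17 against 9 in block 1, 2 to 19 against 7 in block 2, and 6 to 21 against 6 over all rats. Between blocks they numbered 4540 to 6495 against 5291. The beta-actin 3'/5' ratio as a covariate and the splits by strain for r were chosen after seeing the data, and the first gave 0 called clock genes. Causes were not tested. No paired analysis was possible because replicate numbers were given in the order of accession. With 3 rats a strain in a block and no detection calls used here, signal over background limits Per1, Per3 and the dimmest probe sets.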

Other observations

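Of 10 renal genes known to be under clock control 9 were tested and 0 passed in any strain comparison by limma, with 0 at an unadjusted p under 0.05 over all rats (4.6% of all genes), 1 in block 1 (10.1%), 0 in block 2 (3.11%) and 1 in block 3 (12.3%). Sgk1, a kinase that raises sodium uptake, was at -0.64 ± 0.149 in block 1 (limma, adjusted p = 0.15), and of the settings run it passed there only without Dahl S replicate 2. Wnk1, a kinase upstream of the thiazide-sensitive cotransporter, had -0.29 ± 0.095 in block 3 (adjusted p = 0.22). Between blocks 6 of the 9 passed, beside 50.5% of all genes, with Slc12a3, that cotransporter, higher in block 3 than in block 1 by 0.77 ± 0.094 and the water channel Aqp4 at -1.64 ± 0.236.

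Of 12 genes of the stress and glucocorticoid response 10 were tested, and 0 passed in any strain comparison, with 1 at an unadjusted p under 0.05 over all rats (4.6% of all genes), 1 in block 1 (10.1%), 1 in block 2 (3.11%) and 0 in block 3 (12.3%). The 1 over all rats was Ddit4, at -0.30 ± 0.116 over all rats (limma, adjusted p = 1) and -0.49 ± 0.168 in block 1 (adjusted p = 0.36). Between blocks 5 of the 10 passed, beside 50.5% of all genes, with the metallothionein Mt2A higher in block 3 than in block 1 by 1.08 ± 0.148.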
